A study of Mus musculus with 6 samples.

Results

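Trp53 and 9 classic p53 target genes (Mdm2, Cdkn1a, Bax, Bbc3, Ccng1, Aen, Sesn1, Zmat3 and Phlda3) were followed in mouse 4T1 mammary carcinoma cells given doxycycline to induce a LINE-1 (L1) retrotransposon. The genes were chosen by symbol from a table of 24421 genes, all 10 were found in it, and all 10 passed the filter on low counts that left 13084 genes for testing. The cells, named 4T1-tetL1(GLucAI), are of BALB/cfC3H origin. Both groups carry the same integrated cassette, a recoded mouse L1 behind a doxycycline-inducible promoter with a Gaussia luciferase retrotransposition readout. The line is a blasticidin-selected population and not a single clone. Untreated cells, which another label calls vehicle, and cells exposed to 400 ng/mL doxycycline for 48 h were sequenced as total RNA, with 3 libraries per group. No doxycycline-treated cells without the cassette are among these samples, so doxycycline and L1 induction cannot be told apart. The RNA of the cassette was not analysed here, and the groups rest on the sample titles.

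Library totals ran from 31653464 to 43631312 counts and overlapped between the groups. The 45S ribosomal precursor Rn45s took 8.83 to 12.1% of the counts. All 8 epithelial markers were expressed (Epcam, Cdh1, Krt7, Krt8, Krt18, Krt19, Cldn4 and Cldn7), with a summed level of 1838 to 1925 CPM (reads of a gene relative to the scaled library total) in untreated and 1789 to 2023 CPM in doxycycline libraries. Krt19 alone of these was called, falling from 63.3, 65.7 and 61.4 CPM in untreated to 50.8, 55.8 and 47.5 CPM in doxycycline libraries (log2 fold change -0.31, adjusted p 0.00782), a call lost without untreated replicate 2 (adjusted p 0.0713) and without doxycycline replicate 3 (adjusted p 0.0799). Epcam, Cldn4 and Cldn7 had all doxycycline values above all untreated ones and were not called. Over all tested genes 10.1% stood apart in that direction. Cldn4 passed the threshold without a filter (adjusted p 0.0449) and without doxycycline replicate 1 (adjusted p 0.0371). Over all genes these fits called 649 of 17661 and 563 of 13266, against 404 of 13084 in the main fit. Of 8 markers of immune, endothelial and stromal cells, 7 had a mean under 1 CPM in both groups, and Adgre1 and Col3a1 had 0 counts. The exception was Cd68, at 9.89 CPM in untreated cells. The summed level of these markers was 10.1 to 12.4 CPM in untreated and 9.81 to 11.1 CPM in doxycycline libraries.

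p53, the product of Trp53, is a transcription factor that is held low by the ubiquitin ligase Mdm2 and is stabilised by DNA breaks and other stresses. Active p53 binds response elements made of a pair of adjoining decamers and raises genes for cell cycle arrest, cell death, DNA repair and metabolic restraint, Mdm2 among them. Several of these genes also have p53-independent transcription. 4T1 cells are known to lack functional p53. A table of reads per gene does not show whether a protein is made.

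Letter matches to the p53 response element can be read in some promoters of the 10 genes. Windows of 250 bases before to 50 bases after an annotated start were searched for the consensus p53 decamer of 10 letters. Because the decamer is its own reverse complement, 1 strand covers both. RefSeq windows on GRCm38.p6 were found for 9 of the 10 genes, 14 windows in all, some of which overlap. Zmat3 was not among them. A perfect decamer lay in 8 of the 14 windows, from 7 genes, against 8.36% of all 32851 promoter windows. A full site, 2 adjoining decamers with at most 2 mismatches in all and the core C and G of each decamer intact, lay in 2 of the 14 windows, those of Cdkn1a and Ccng1, against 0.326% of all windows. With at most 3 mismatches, a limit chosen after the data were seen, 7 of the 14 windows held one, from 6 genes, against 1.38%. The windows of Aen overlap and hold the same site. The genes were chosen as p53 targets, so these shares are a description and no conclusion is drawn from them. The full sites of Cdkn1a and Ccng1 are shown as the closest matches, and that of Aen because Aen is the member that differed between the groups. The 20 letters of each full site are in capitals.
Cdkn1a: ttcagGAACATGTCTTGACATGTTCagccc
Ccng1: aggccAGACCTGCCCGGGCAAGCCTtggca
Aen: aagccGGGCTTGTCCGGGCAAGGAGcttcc

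The Cdkn1a sequence lies on the plus strand at chr17:29090923-29090952, with its site centred 41 bases before the upstream of 2 annotated starts and with 1 mismatch. The Ccng1 sequence lies on the minus strand at chr11:40755457-40755486, with its site centred 185 bases before the start behind its window and with 1 mismatch. The Aen sequence lies on the plus strand at chr7:78895932-78895961. Its site, with 3 mismatches, is centred 20 bases after the first of 2 annotated starts and 111 bases before the second. A match of letters is a description of these windows and does not show that a factor is bound there.

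Of the 10 genes, 1 (Aen) was higher and 0 were lower in doxycycline cells at an adjusted p under 0.05 (quasi-likelihood test of edgeR, adjusted by Benjamini-Hochberg over 13084 genes). Over all tested genes 3.09% were called, 0.925% higher and 2.16% lower. At an unadjusted p under 0.05 there were 2 of the 10, Aen and Cdkn1a, against 16.2% of all tested genes. The 3 libraries of each group stood apart without overlap for 1 of the 10, against 21.3% of all tested genes. The median log2 fold change of the 10 was 0.006, and the median absolute log2 fold change was 0.04. Over all tested genes these medians were 0.002 and 0.09. In bulk RNA, a change in the number of expressing cells and a change in RNA per cell cannot be told apart.

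**Figure D1:**
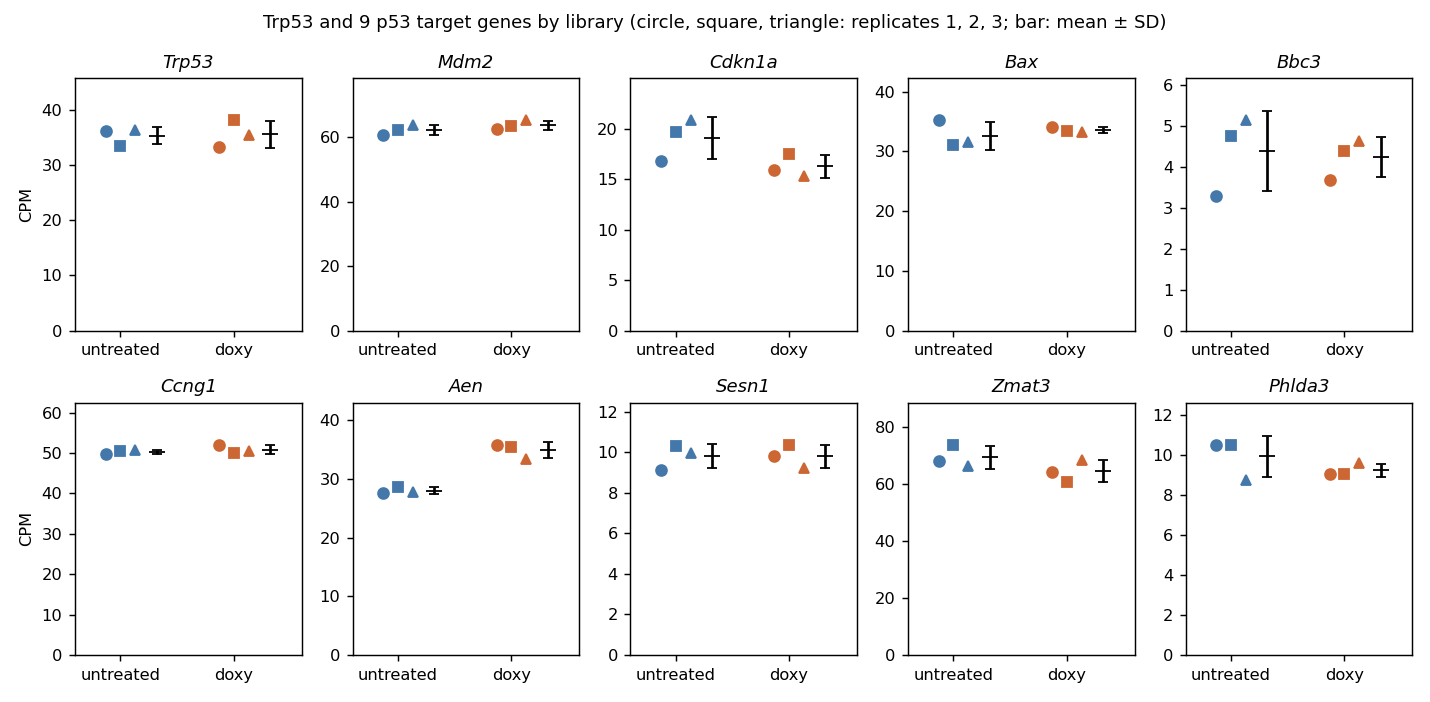
CPM of Trp53 and its 9 targets on linear axes from 0, with 1 panel per gene. Blue symbols are untreated and orange symbols doxycycline ("doxy") libraries, with replicates 1, 2 and 3 as circle, square and triangle and bars for mean ± SD. The groups overlap in 9 panels, and only for Aen do all 3 doxycycline libraries lie above all untreated ones.

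Trp53 (chromosome 11, 69580348 to 69591873) had RNA in every library, at 36.2, 33.6 and 36.4 CPM in untreated replicates 1 to 3 and 33.3, 38.2 and 35.5 CPM in doxycycline replicates 1 to 3. Both the lowest and the highest of the 6 values were doxycycline libraries. The log2 fold change was 0.01 (SE 0.07, adjusted p 0.962). Its 95% interval of -0.13 to 0.15, not corrected for the number of genes, ran from a fall of 8.78% to a rise of 11.3%. The sign changed with single libraries, to -0.02 without untreated replicate 2 and to -0.04 without doxycycline replicate 2.

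The feedback regulators of p53 come next. Mdm2 (chromosome 10, 117688875 to 117710758), the ligase that marks p53 for degradation, had 60.5, 62.1 and 63.6 CPM in untreated and 62.5, 63.5 and 65.2 CPM in doxycycline libraries. The 2 lower doxycycline values lay within the untreated range. Its log2 fold change was 0.04 (SE 0.05, adjusted p 0.795, 95% interval -0.08 to 0.15), the narrowest interval of the 10. Ccng1 (chromosome 11, 40748552 to 40755309) encodes cyclin G1, a partner of protein phosphatase 2A that acts on Mdm2. It had 49.7, 50.4 and 50.8 CPM in untreated and 52.0, 50.0 and 50.4 CPM in doxycycline libraries. The difference was 0.01 on the log2 scale (SE 0.06, adjusted p 0.935, 95% interval -0.10 to 0.13). Its promoter holds one of the closest matches shown above.

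Cdkn1a (chromosome 17, 29090979 to 29100722) encodes p21, the inhibitor of cyclin-dependent kinases through which p53 halts the cell cycle. It had 16.8, 19.7 and 20.8 CPM in untreated and 16.0, 17.5 and 15.3 CPM in doxycycline libraries. Untreated replicate 1 fell within the doxycycline range, and the other untreated libraries lay above it. Its log2 fold change was -0.23 (SE 0.09), with an unadjusted p of 0.025 and an adjusted p of 0.224. The 95% interval, not corrected for the number of genes, ran from -0.43 to -0.03, which allows a fall of at most 25.5%. Cdkn1a was the lowest of the 10 log2 fold changes and was below 0 in all 13 alternative fits (-0.32 to -0.16) without passing the threshold in any.

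**Figure D2:**
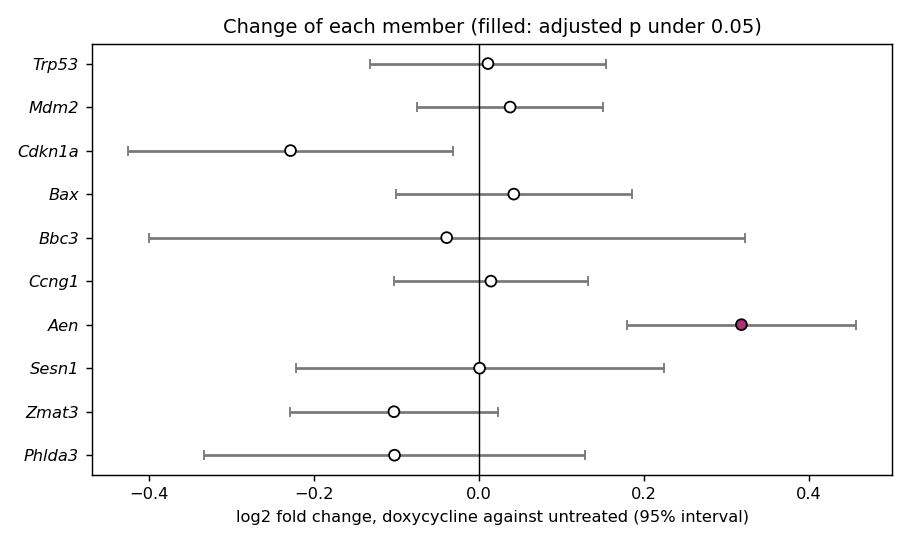
Log2 fold change of doxycycline against untreated libraries for each of the 10 genes, with bars for the 95% interval. The filled point is the gene past an adjusted p of 0.05, Aen at 0.32. The intervals of 8 genes span 0, and that of Cdkn1a ends at -0.03.

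Among the cell death genes, Aen was the one that passed the test. Aen (chromosome 7, 78895927 to 78911209) encodes apoptosis enhancing nuclease. It had 27.6, 28.7 and 27.8 CPM in untreated and 35.9, 35.6 and 33.4 CPM in doxycycline libraries. The lowest doxycycline value lay above the highest untreated value. Aen rose by a log2 fold change of 0.32 (SE 0.07, 95% interval 0.18 to 0.46, adjusted p 0.00864), or 24.7%, and ranked 163 of 13084 genes by p. In 13 alternative fits the log2 fold change ran from 0.30 to 0.35 and the adjusted p from 0.000864 to 0.0647. The call was lost without untreated replicate 1 (adjusted p 0.0623) and without untreated replicate 3 (adjusted p 0.0647).

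Bax (chromosome 7, 45461695 to 45466903) encodes the pore-forming protein that permeabilises the mitochondrial outer membrane. It had 35.2, 31 and 31.5 CPM in untreated and 34.1, 33.4 and 33.2 CPM in doxycycline libraries, so the doxycycline values fell within the untreated range. The log2 fold change was 0.04 (SE 0.07, adjusted p 0.827, 95% interval -0.10 to 0.19). In the annotation Bax shares 192 exon bases with Gm45808 on the same strand, and how such reads were assigned is not given in the sources used here. Bbc3 (chromosome 7, 16308398 to 16318334) encodes PUMA, a BH3-only protein that activates Bax and binds the BCL2 survival proteins. It was the least abundant of the 10, at 117 to 192 counts per library. Its level was 3.28, 4.74 and 5.13 CPM in untreated and 3.68, 4.38 and 4.62 CPM in doxycycline libraries. The doxycycline values again lay inside the untreated range. Its log2 fold change of -0.04 (SE 0.17, adjusted p 0.944) had the widest interval, -0.40 to 0.32. That interval ran from a fall of 24.2% to a rise of 25%.

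The remaining members act on growth signals and RNA. Sesn1 (chromosome 10, 41810574 to 41908436), a sestrin that restrains the growth kinase mTORC1, had 9.15, 10.3 and 9.99 CPM in untreated and 9.81, 10.4 and 9.25 CPM in doxycycline libraries. Its log2 fold change was 0.0008 (SE 0.11, adjusted p 0.998, 95% interval -0.22 to 0.22). Zmat3 (chromosome 3, 32334792 to 32365665) encodes a zinc finger protein that binds RNA. It had 67.8, 73.6 and 66.0 CPM in untreated and 63.9, 60.7 and 68.4 CPM in doxycycline libraries, with overlap between the groups. Its log2 fold change was -0.10 (SE 0.06, adjusted p 0.419, 95% interval -0.23 to 0.02). Phlda3 (chromosome 1, 135766085 to 135769134) encodes a small pleckstrin homology protein that competes with the kinase AKT for membrane lipids. It had 10.5, 10.5 and 8.76 CPM in untreated and 9.06, 9.04 and 9.61 CPM in doxycycline libraries. All doxycycline values lay between the untreated extremes (log2 fold change -0.10, SE 0.11, adjusted p 0.709, 95% interval -0.33 to 0.13).

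Per kilobase of exon, with GENCODE M21 exon lengths on GRCm38, Bax was the most abundant member in untreated cells at 20.7 ± 1.45 CPM per kilobase (SD, n = 3). Ccng1 followed at 14.3 ± 0.149, then Mdm2 at 12.2 ± 0.303 and Trp53 at 8.75 ± 0.389 CPM per kilobase. Each of these stood clear of its neighbour in the order. Phlda3 (6.36 ± 0.643), Zmat3 (6.05 ± 0.346), Cdkn1a (5.38 ± 0.583) and Aen (4.83 ± 0.100) came next, and each overlapped its neighbour. Sesn1 (2.47 ± 0.153) and Bbc3 (2.06 ± 0.458) were lowest and overlapped each other. In doxycycline cells Aen stood at 6.02 ± 0.230 and Cdkn1a at 4.58 ± 0.319 CPM per kilobase, without overlap. By the longest RefSeq-matched transcript Cdkn1a was the higher of these 2, at a mean of 9.25 against 6.35. These means are over all 6 libraries, untreated ones included, and are not set beside the doxycycline values at like samples. Lengths of the longest RefSeq-matched transcript moved Trp53 to 18.95 CPM per kilobase, above Ccng1, so the middle of the order depends on the length used.

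**Figure D3:**
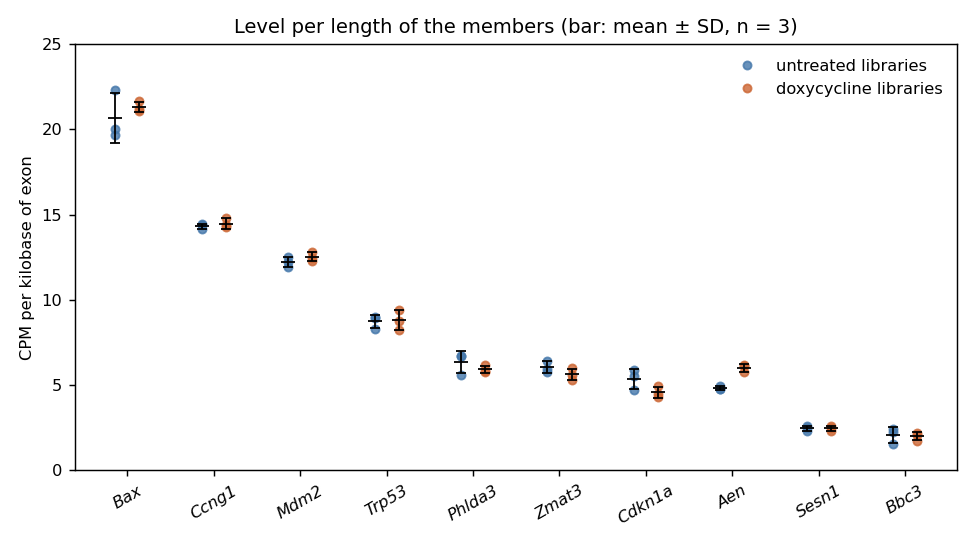
Level per length of the 10 genes, in CPM per kilobase of exon on a linear axis from 0, ordered by their untreated mean. Points are libraries and bars mean ± SD (n = 3). Levels ran from 2.06 for Bbc3 to 20.7 for Bax in untreated cells.

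The 10 genes shared no common order of the 6 libraries. Over their 45 pairs, Pearson's r of log2 CPM had a median of -0.07 and ran from -0.89 between Bax and Bbc3 to 0.75 between Zmat3 and Phlda3, as a description with treatment included. Among 8781 other genes with a mean of at least 10 CPM, the patterns closest to Trp53 over the 6 libraries were those of Pacs1 (r 0.986), Mlf2 (0.979) and Rab43 (0.973). For Cdkn1a they were R3hcc1 (0.987), Pot1a (0.980) and Atf3 (0.976). The 2 closest to Aen were Mmab (0.997) and Baz1a (0.996). These are the highest of a search over 6 points and serve as a description.

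Paralogs of the members were read beside them. Of 11 tested, 2 were called lower and 0 higher, with a median log2 fold change of -0.07. The shares called over all tested genes were 2.16% and 0.925%. Before adjustment, 5 paralogs had an edgeR p below 0.05, beside 16.2% of all tested genes. For 4 paralogs all doxycycline values lay below all untreated ones, beside 11.1% of all tested genes, and 0 paralogs stood apart upward. Ccng2, which encodes cyclin G2, fell from 34.7, 31.5 and 39.3 CPM in untreated libraries to 24.3, 22.1 and 18.7 CPM in doxycycline libraries. The log2 fold change was -0.70 (SE 0.09, adjusted p 0.000108), and the call held in all 13 alternative fits. Sesn3, a sestrin like Sesn1, fell from 24.7, 23.0 and 22.5 CPM to 18.9, 17.3 and 16.7 CPM (log2 fold change -0.41, SE 0.08, adjusted p 0.00592), a call lost without untreated replicate 1 (adjusted p 0.0649). In both genes every doxycycline library lay below every untreated one.

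The difference between relatives was then read within each library, for pairs chosen after their values were seen. The log2 ratio of Ccng2 to Ccng1 was -0.52 ± 0.16 in untreated and -1.24 ± 0.18 in doxycycline libraries (SD, n = 3 each, 2-sided exact permutation p 0.1). The log2 ratio of Sesn3 to Sesn1 was 1.25 ± 0.16 and 0.85 ± 0.10 (2-sided exact permutation p 0.1). With 3 libraries against 3 this p is the smallest the test can give, and neither pair overlapped between groups. Ccng2 and Sesn3 were already called, so the ratios restate those calls, serve as a description and add no separate support. Zmat1, a relative of Zmat3 at 2.67 and 1.5 CPM, had a log2 fold change of -0.82 and missed the threshold (SE 0.23, adjusted p 0.0566). It passed in 5 of its 13 alternatives. The other p53 family genes were scarce, with 0 counts of Trp73 in all libraries, so up to 0.0948 CPM would be missed in the smallest of them, and 4 to 14 counts of Trp63.

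**Figure D4:**
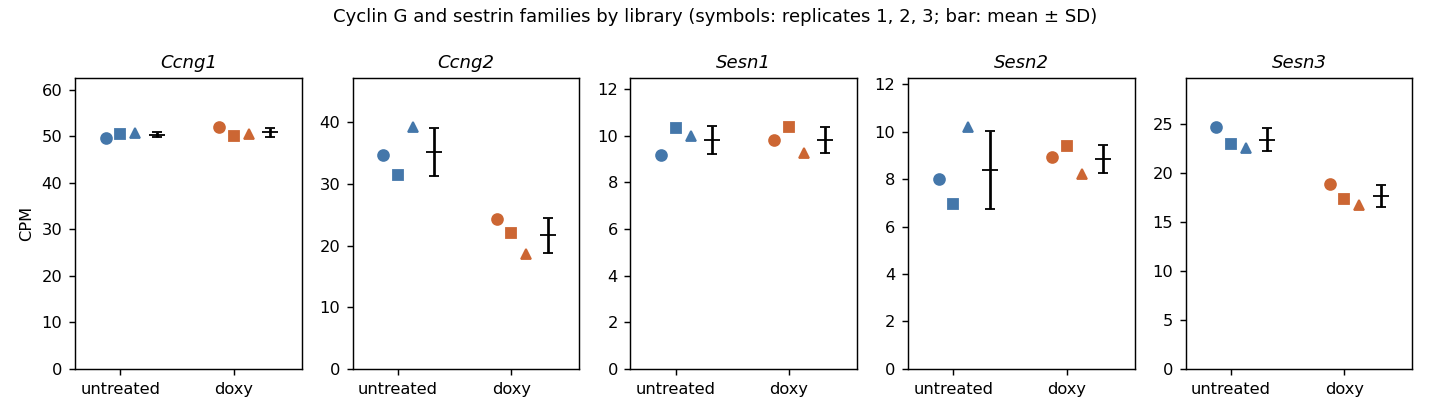
CPM of the cyclin G genes and the sestrins by library on linear axes from 0, with symbols for replicates 1, 2 and 3 and bars for mean ± SD. Ccng1, Sesn1 and Sesn2 overlap between untreated and doxycycline ("doxy") libraries, while Ccng2 and Sesn3 do not.

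Upstream of p53, 0 of 19 tested regulators were called, against 3.09% of all tested genes. Their median log2 fold change was 0.05, and 15 lay above 0, against 6641 of all 13084 tested genes. For 4 regulators all doxycycline values lay above all untreated ones, against 10.1% of all tested genes, and 0 stood apart downward. At an unadjusted p under 0.05 there were 3, against 16.2% of all tested genes, and DESeq2 also called 0. Without doxycycline replicate 1 there was 1 call, Prmt5, an arginine methyltransferase (log2 fold change 0.185, adjusted p 0.0324). That fit called 563 of 13266 genes over all, against 404 of 13084 in the main fit. Mdm4, the relative of Mdm2 that blocks p53 without degrading it, had 157 ± 4.53 CPM in untreated and 164 ± 9.86 CPM in doxycycline cells (log2 fold change 0.06, SE 0.05, adjusted p 0.567). Usp7, which removes ubiquitin from Mdm2 and p53, was the most abundant regulator at 333 ± 5.77 and 347 ± 3.81 CPM (adjusted p 0.531). The largest difference belonged to Kat5, an acetyltransferase of the DNA damage response, at 38.4 ± 1.42 and 43.0 ± 1.2 CPM (log2 fold change 0.16, SE 0.06, adjusted p 0.18). Cdkn2a, whose alternative product p19Arf blocks Mdm2, had 0 counts in all 6 libraries, and so did its neighbour Cdkn2b.

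Among 44 tested genes of a wider p53 target list, 1 was higher and 2 were lower, with 22 log2 fold changes on each side of 0 and a median of 0.001. Calls over all tested genes were 0.925% higher and 2.16% lower. Before adjustment, 12 of these targets had an edgeR p below 0.05, beside 16.2% of all tested genes. The groups did not overlap for 11 targets, 5 higher and 6 lower, beside 21.3%. Their median absolute log2 fold change was 0.139, and that of all tested genes was 0.0885. On omission of single libraries the list had 0 to 2 calls higher and 1 to 3 lower. Ddit4, which restrains mTORC1, fell from 25.7 ± 2.11 to 16.6 ± 2.63 CPM (log2 fold change -0.63, adjusted p 0.000636). Cd82, a membrane tetraspanin, fell from 30.7 ± 1.29 to 24.4 ± 3.0 CPM (log2 fold change -0.33, adjusted p 0.0287). Epha2, an ephrin receptor kinase, rose from 219.6 ± 6.93 to 254 ± 21.4 CPM (log2 fold change 0.21, adjusted p 0.0323). Ddit4 is also a known hypoxia and stress gene. Its call held in all 13 alternative fits. The call of Cd82 held without doxycycline replicate 2 and failed on omission of any other single library (adjusted p 0.0613 to 0.184). That of Epha2 was lost without doxycycline replicate 3 and without each untreated replicate in turn (adjusted p 0.0996 to 0.241).

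Other classic damage-response targets were not called. Gadd45a, which acts in growth arrest and repair, had 7.96 ± 0.75 CPM in untreated and 6.86 ± 0.65 CPM in doxycycline cells (log2 fold change -0.21, adjusted p 0.422). The remaining 7 of the 51 listed targets were too scarce to test. Pmaip1, which encodes the BH3-only protein NOXA, had 1 count in 1 library and 0 in the others. The p53-induced long noncoding RNA Trp53cor1 had 3 to 14 counts per library.

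**Figure D5:**
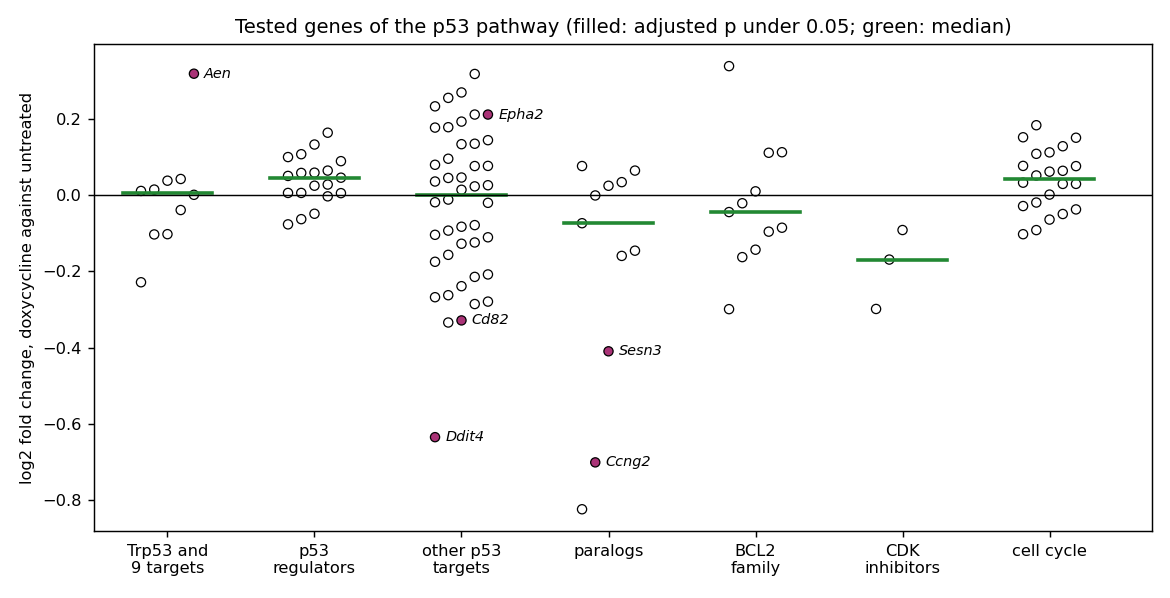
Log2 fold change, doxycycline against untreated, of each tested gene in 7 lists of the p53 pathway. Filled points passed an adjusted p of 0.05 and are named, and green lines are list medians, from -0.17 for 3 cyclin-dependent kinase inhibitors to 0.05 for the regulators.

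Genes downstream of p21 and beside Bax were also measured. In a list of 22 cell cycle genes that p21 is known to hold down, 0 were called. Of the 22, 15 lay above 0, and the median was 0.04. At an unadjusted p under 0.05 there were 6, against 16.2% of all tested genes. DESeq2 and limma voom also called 0. The fit without doxycycline replicate 1, which called 563 of 13266 genes over all, had 2 calls in this list. They were Cdc20 (log2 fold change 0.22, adjusted p 0.0158), an activator of the anaphase-promoting complex, and Mcm5 (0.20, adjusted p 0.0217), a subunit of the replicative helicase. E2f1, a factor for S phase entry, had the largest difference, at 37.4 ± 0.33 and 42.5 ± 1.40 CPM (log2 fold change 0.18, SE 0.06, adjusted p 0.121). Mki67, the proliferation marker, had a log2 fold change of -0.03 (SE 0.04, adjusted p 0.807). Of 11 tested BCL2 family genes 0 were called, and the median was -0.04. For 3 of them all doxycycline values lay below all untreated ones, against 11.1% of all tested genes, and 0 stood apart upward. Of the 11, 2 had an unadjusted p under 0.05, against 16.2% of all tested genes. DESeq2, which called 523 of 13084 genes over all, called 1 of the 11 lower. It was Bcl2l11, which encodes the BH3-only protein BIM (log2 fold change -0.16, adjusted p 0.0825 in edgeR). The 3 tested kinase inhibitors besides Cdkn1a all lay below 0 without being called, and DESeq2 called 0. Of the 3, 2 had an unadjusted p under 0.05, against 16.2% of all tested genes. Cdkn2d, which encodes p19Ink4d, had the largest difference of these (log2 fold change -0.30, SE 0.10, adjusted p 0.103). Its untreated values of 15.2, 13.9 and 13.8 CPM lay above the doxycycline values of 11.3, 11.2 and 12.3 CPM.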

How the data were processed

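Total RNA from 6 cultures was depleted of ribosomal RNA and sequenced from strand-marked libraries. The authors aligned reads with STAR to GRCm38 and deposited raw read counts per gene from featureCounts (Subread 1.6.2 per the submitters' processing notes), unnormalized and with replicates kept apart. Strand setting and handling of reads with several matches are not given in the sources used here. Of the genes, 6760 had no count. Groups were taken from the sample titles, and 0 columns lacked a sample. The study calls the replicates biological, and the chi-square statistic per degree of freedom was 6.14 to 22.1 between replicates, so each library was counted once.

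The members and lists were chosen with earlier results of these data known. Genes past edgeR's filterByExpr were tested by the quasi-likelihood test of edgeR 4.0.16 (R 4.3.3, robust, TMM, group as the only term), with Benjamini-Hochberg adjustment over all tested genes at 0.05. The study used DESeq2. SE is the absolute log2 fold change over the square root of F, and intervals use the t distribution. CPM uses TMM-scaled totals, and SD is over 3 libraries. At these depths 3 counts correspond to 0.0688 to 0.0948 CPM, for counting error only. On simulated counts of 12974 genes for this comparison, the test called 86.6% of genes with a true log2 change of 1 and 65.7% of those with 0.5, 8.59% of its calls were unchanged genes, and 95.1% of the intervals held the true value.

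Alternatives were limma voom (3.58.1), the DESeq2 Wald test (1.42.0), DESeq2 size factors, scaling by library size, a minimum of 10 counts per library, no filter, a block for the replicate number, omission of each library, and transcript length. The text names all 10 members, from each other list the genes called, the most changed and the most abundant, and a fixed set (Mdm4, Cdkn2a, Trp63, Trp73, Gadd45a and Pmaip1). It also names the 3 genes closest in pattern to Trp53, Cdkn1a and Aen, of which 1 for Aen is not reported here. Not every gene so chosen is reported. Some genes called only in an alternative fit are also named, and others are not. A few genes, such as Cdkn2b and Trp53cor1, are named outside these rules. Gene spans and promoter windows are from separate RefSeq tables on GRCm38.p6, counted from 1, and the start behind a window can lie inside the gene span.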

Additional observations from a re-analysis of the deposited data

How the results depend on the processing

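Aen was higher in all 13 alternatives, and 1 member was called higher in 11 of them, with 0 to 1 across the 6 leave-out fits. No member was called lower in any. The sign of members near 0 was not stable. Across the leave-out fits the log2 fold change ran from -0.219 to 0.0924 for Bbc3, from -0.05 to 0.0426 for Sesn1, from -0.0419 to 0.0563 for Trp53 and from -0.00246 to 0.0254 for Ccng1. Bbc3 was also above 0 with limma voom (0.00535), and Sesn1 below 0 with library size only (-0.00928) and without a filter (-0.00214). The cause was not tested. The median of the members ran from -0.04 (without doxycycline replicate 2) to 0.02.

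Over all genes, calls without a filter were 210 higher and 439 lower, and the leave-out fits gave 44 to 269 higher and 116 to 487 lower. The other alternatives stayed within 1.5 times of 121 higher and 283 lower. Same-numbered libraries did not deviate together (r -0.04, -0.004 and 0.02), and not every library correlated best with its own number. With the replicate block 418 genes were called, Aen stayed past the threshold and Sesn1 was at -0.00196.

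By the longest RefSeq-matched transcript, untreated levels in CPM per kilobase were 37.6 for Bax, 20.03 for Mdm2, 18.95 for Trp53, 9.99 for Cdkn1a, 8.87 for Zmat3 and 5.66 for Aen, since these transcripts are shorter than the union of exons. Bbc3, the member with the fewest counts, had the widest 95% interval of the log2 fold change, ±0.361 against ±0.113 for Mdm2. Counting error and replicate spread both enter it, and their shares were not tested.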
